A study of Homo sapiens with 14 samples.

Results

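Overexpression of ΔNp63α, written DNp63α in the sample titles, was compared with a vector control by RNA-seq in UM1, a cell line established from a human squamous cell carcinoma of the tongue, with 3 libraries in each group. Described here are the 13382 genes with a mean of at least 1 TPM (an abundance per transcript length, scaled to the same total in each library) over the 6 libraries, out of 16137 genes listed. The libraries belong to a series of 14 samples on PRMT5 and ΔNp63α in this line, and the knockdown and chromatin samples are not used here. Both groups are UM1 cells, and the labels call the control vector and say no more of it. They do not give how ΔNp63α was delivered, for how long it was expressed, whether the cells were 1 clone or a pool, or how they were grown. The titles call the replicates biological, but no label speaks of separate cultures, and the p-values therefore describe only how much these libraries spread, which may be technical. Values after ± are SDs over the 3 libraries of a group, and folds are on the log2(TPM + 1) scale or, where given as a factor, of mean TPM.

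ΔNp63α is the main product of TP63 in the basal layer of stratified epithelium. It lacks the long N-terminal activation domain of the TAp63 forms, binds the DNA elements that p53 also recognises, and either raises or represses transcription depending on the gene. It keeps basal keratinocytes in their lineage, is needed for stratification, and is often abundant in squamous carcinomas of the mouth.

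TP63 itself (ENSG00000073282) stood at 138, 82.3 and 97.3 TPM with vector and at 152, 160.4 and 168 TPM with ΔNp63α (log2 fold 0.62 with SE 0.18 and limma adjusted p = 0.03). All 3 ΔNp63α libraries were higher than the highest vector library, vector replicate 1, but by little. The call was lost when any library other than vector replicate 1 was left out, and without the intensity trend. The values cover every transcript of the gene, and no source used here tells which part of TP63 the construct holds. KRT14 and KRT5, the keratin pair of basal squamous cells and classical p63 targets, were both higher. KRT14 stood at 5567, 2977 and 2501 TPM and at 18859, 10196 and 12260 TPM (log2 fold 1.94 with SE 0.28 and limma adjusted p = 0.000617). KRT5 stood at 3352, 1936 and 2344 TPM and at 9619.7, 5069 and 6373 TPM (log2 fold 1.45 with SE 0.24 and limma adjusted p = 0.00149). In both, replicate 1 was the highest library of its group, and the groups did not overlap. Together the pair took 0.623 ± 0.233% of all TPM with vector and 2.08 ± 0.687% with ΔNp63α (SD, n = 3 each).

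Of 13 markers of squamous epithelium all were tested, with 6 members higher and 1 lower. Their sum stood at 15097, 8706 and 8122 TPM with vector and at 34960, 19024 and 22937 TPM with ΔNp63α. KRT14 and KRT5 are among them and made up most of this sum in every library and most of its rise. Of 10 fibroblast markers 2 were tested, COL1A1 and LUM, and the summed level of the listed markers ranged from 30.2 to 38.69 TPM with vector and from 43.08 to 61.98 TPM with ΔNp63α. LUM, a proteoglycan of connective tissue, was called higher, at 11.4, 23.95 and 20.5 TPM with vector and at 23.9, 46.4 and 41.2 TPM with ΔNp63α (log2 fold 0.97 with SE 0.28 and limma adjusted p = 0.0307). The groups overlapped, and the call was lost without ΔNp63α replicate 2, ΔNp63α replicate 3, vector replicate 1 or vector replicate 3. Of 10 immune markers 2 were listed and 1 was tested, with list sums of 1.292 to 4.723 and 0.8244 to 2.408 TPM. Of 10 endothelial and melanocyte markers 3 were tested, with sums of 17.76 to 24.7 and 20.24 to 23.01 TPM. The markers not tested were below a mean of 1 TPM or not listed. In such bulk libraries fewer cells of a kind and less RNA per cell cannot be told apart.

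In all, 2875 genes passed limma's test at a Benjamini-Hochberg adjusted p under 0.05, here called, which is 21.5% of those tested. They comprised 982 higher genes (7.34%) and 1893 lower genes (14.1%), and 34.2% of all calls thus went up. Median-of-ratios rescaling gave a split of 1408 higher and 1744 lower (44.7% higher), and quantile normalization one of 1527 and 1659 (47.9%), with 0 genes called in opposite directions by either. The count of higher genes was 567 without ΔNp63α replicate 2, 417 without ΔNp63α replicate 3 and 426 without vector replicate 3, and that of lower genes was 1150 without vector replicate 3. The calls of 1352 genes, 329 higher and 1023 lower, held with every library left out in turn. Genes named below as having risen or fallen are of this kind unless a library is named. The groups did not overlap at 1898 higher genes (14.2%) and 3174 lower genes (23.7%).

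**Figure D1:**
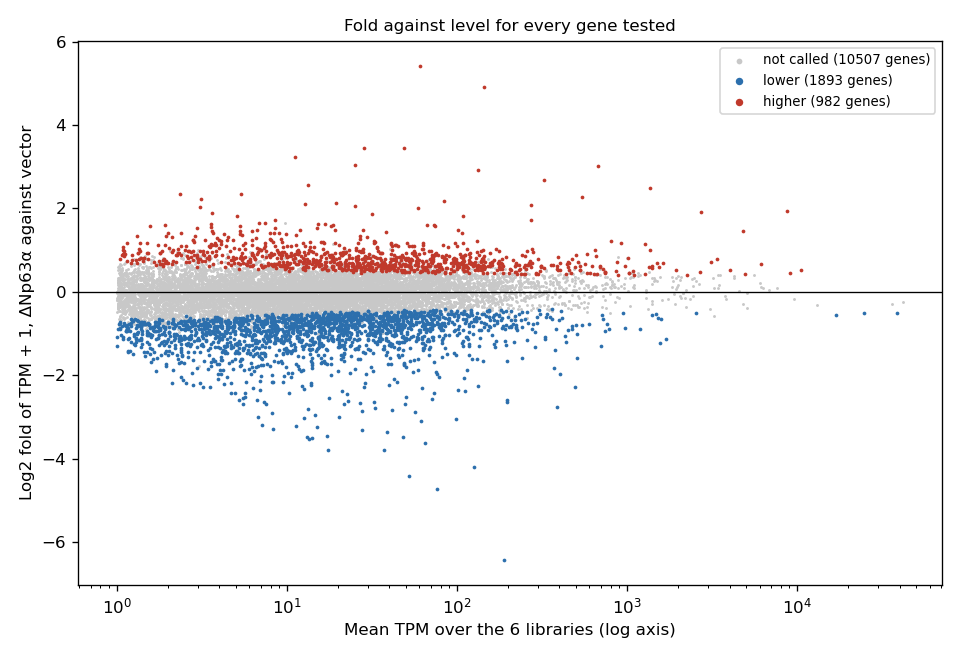
Log2 fold of TPM + 1 (vertical axis, ΔNp63α against vector) against the mean TPM over the 6 libraries (horizontal log axis) for the 13382 genes tested, with 982 higher genes in red, 1893 lower genes in blue and the others in grey. Above a size of 1 the lower genes outnumber the higher ones.

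Most calls were of modest size. Sizes between 0.5 and 1 on the log2 scale held 736 higher genes and 1115 lower ones. Between 1 and 2 there were 164 higher and 633 lower genes, and at 2 or more 22 higher and 93 lower. Higher calls became more frequent with expression: in 4 equal groups by mean TPM 3.97%, 5.83%, 6.85% and, above 38 TPM, 12.7% were higher, while the share of lower genes stayed between 12.6% and 14.9%. The first principal component carried 61.1% of the variance and separated the groups, with scores of -25.35, -34.03 and -40.04 for the vector libraries and of 33.82, 33.63 and 31.97 for the ΔNp63α libraries. On the second component, with 16.2%, replicate 1 had the highest score in either group. The 55 gene lists described below held 613 of the called genes, or 21.3%.

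**Figure D2:**
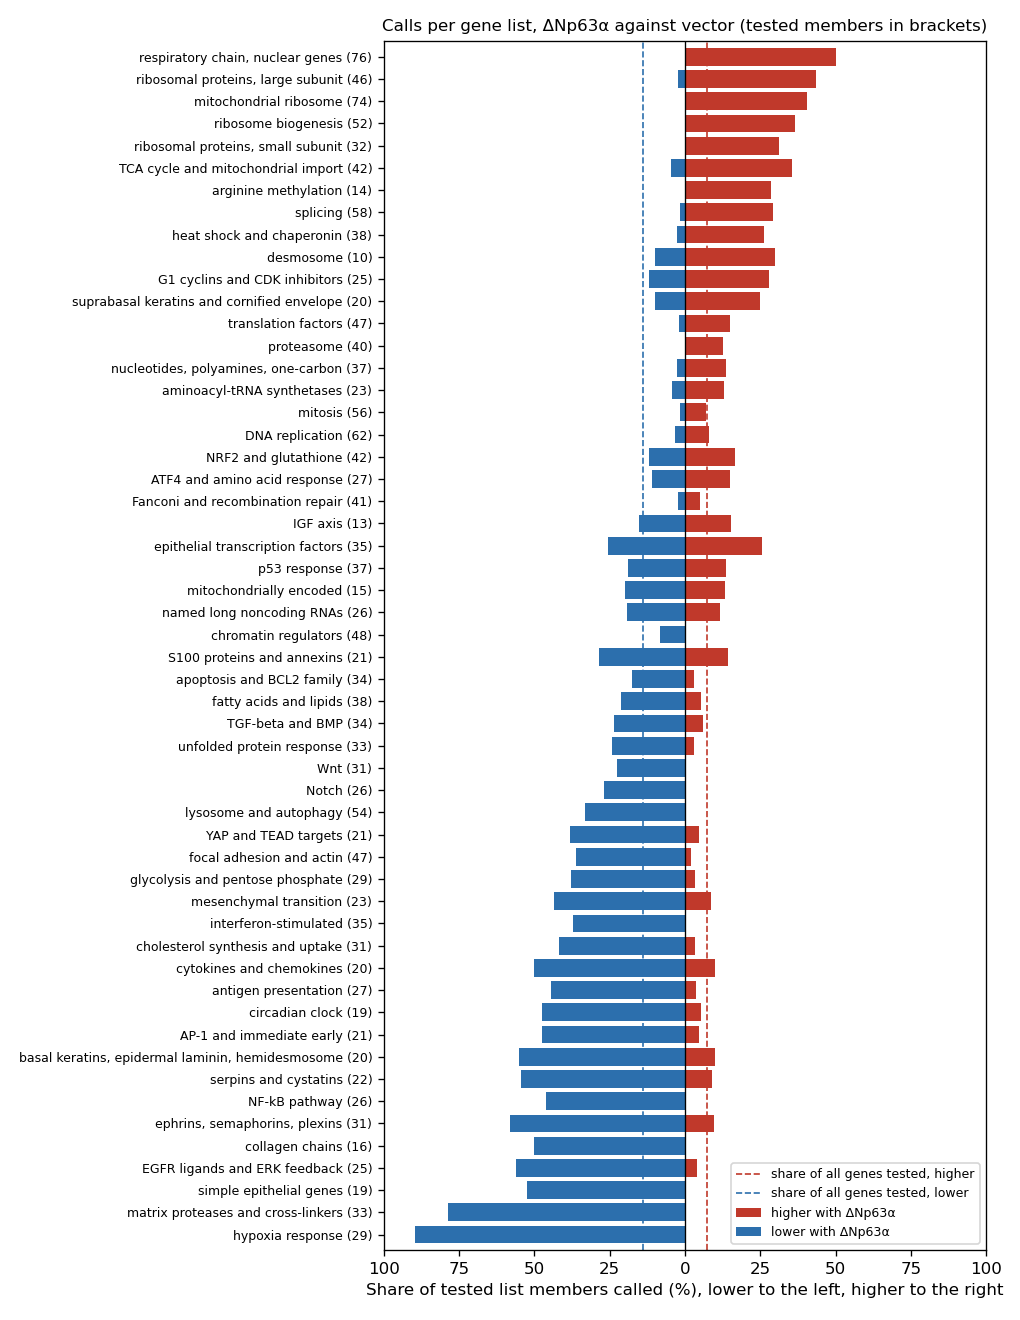
Share of the tested members of each gene list called higher (red, to the right) or lower (blue, to the left) with ΔNp63α, for lists with at least 10 tested members, given in brackets; the dashed lines mark the shares over all genes, 7.34% higher and 14.1% lower. Mitochondrial, ribosomal and splicing lists lie at the top and the hypoxia and matrix lists at the bottom.

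Keratins and other genes of epithelial state changed in opposite ways. Of 19 keratin genes tested, 7 were higher and 3 lower. Of 20 tested suprabasal keratin and cornified envelope genes 5 were higher (25%) and 2 lower (10%), against 7.34% and 14.1% of all genes. The median log2 fold of this list was 0.13 above that of all genes. SPRR1B, a small proline-rich protein that is cross-linked into the cornified envelope, stood at 5.36, 2.41 and 3.78 TPM with vector and at 78.9, 38.2 and 42.03 TPM with ΔNp63α (log2 fold 3.45 with SE 0.29 and limma adjusted p = 1.05e-05). The lowest ΔNp63α library was several times the highest vector library. KRT4, a keratin of the upper layers of oral mucosa, rose from 4.13 ± 0.513 to 11.8 ± 4.298 TPM (SD, n = 3 each). KRT16, a keratin of activated and wounded epidermis, rose from 97.98 ± 17.6 to 444 ± 206 TPM, with the ΔNp63α libraries at 678, 292 and 363 TPM. KRT13, the main partner of KRT4 in mucosa, stood at 524, 548 and 508 and at 437, 353 and 499.6 TPM and was not called (limma adjusted p = 0.173). KRT6A and KRT17, keratins of stressed epithelium, were not called either, with log2 folds of 0.80 and 0.19 (limma adjusted p = 0.113 and 0.695).

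The genes of simple epithelium were lower: 0 of 19 tested members were higher and 10 lower, with a median of -0.64 relative to all genes. Beside KRT19 and KRT7, these included MUC1, a membrane mucin, which stood at 71.3, 109 and 121 TPM with vector and at 13.4, 11.2 and 13.03 TPM with ΔNp63α (log2 fold -2.88 with SE 0.2 and limma adjusted p = 3.12e-06). CLDN4, a tight junction claudin, fell from 13.8 ± 1.8 to 1.31 ± 0.311 TPM (SD, n = 3 each). ELF3, an epithelial ETS factor, fell from 185 ± 51.95 to 58.6 ± 7.28 TPM, and KRT18 from 264 ± 27.6 to 149 ± 7.14 TPM. KRT8, the partner of KRT18, stood at 418 and 382 TPM and was not called (limma adjusted p = 0.551). The adhesion molecule EPCAM, at 226 and 238 TPM, was not called either. With 1 library left out, 7 to 9 genes of this list were lower.

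The list of basal keratins, the epidermal laminin and the hemidesmosome split: 2 of 20 were higher, KRT14 and KRT5, and 11 lower, with a median of -0.71 relative to all genes. ITGA2 (ENSG00000164171), an integrin chain of a collagen receptor on basal cells, stood at 8.72, 6.26 and 8.19 TPM with vector and at 1.14, 1.43 and 0.749 TPM with ΔNp63α (log2 fold -2.05 with SE 0.21 and limma adjusted p = 6.82e-05). Every ΔNp63α library lay far below the lowest vector library, replicate 2. LAMB3, the β3 chain of the epidermal laminin, which anchors basal cells to the basement membrane, fell from 578 ± 75.6 to 279 ± 35.5 TPM, and CDH3, the P-cadherin of basal cells, from 43.3 ± 0.419 to 16.3 ± 1.43 TPM. ITGA3, an integrin chain that binds this laminin, fell 2.31-fold. Of 10 desmosome genes, 3 were higher (30%) and 1 lower (10%), against 7.34% and 14.1% of all genes. PKP2, a plakophilin of simple epithelia and heart, fell 2.6-fold. DSC3, PKP1 and PERP, of stratified epithelium, had means 1.66-fold, 1.897-fold and 1.33-fold higher. The call of DSC3 was lost without ΔNp63α replicate 3, that of PKP1 without any 1 library and that of PERP without any 1 library other than vector replicate 2. The count of higher desmosome genes was 0 without ΔNp63α replicate 3 and 1 without ΔNp63α replicate 1, ΔNp63α replicate 2 or vector replicate 3.

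Among 35 transcription factors of epithelia, 9 were higher and 9 lower (25.7% each, against 7.34% and 14.1% of all genes). FOXN1, which drives the onset of terminal differentiation, stood at 21.04, 6.95 and 13.6 TPM with vector and at 59.5, 39.8 and 49.9 TPM with ΔNp63α (log2 fold 1.87 with SE 0.303 and limma adjusted p = 0.00122). The groups did not overlap, with replicate 1 the highest and replicate 2 the lowest library of either group. DLX1, a homeobox factor next to DLX2, rose 3.01-fold. CEBPB fell from 616 ± 50.6 to 332 ± 24.7 TPM and ETS2 from 149.7 ± 8.91 to 62.8 ± 2.92 TPM (SD, n = 3 each). KLF5, a factor of basal epithelium, stood at 303 and 336 TPM (limma adjusted p = 0.463).

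**Figure D3:**
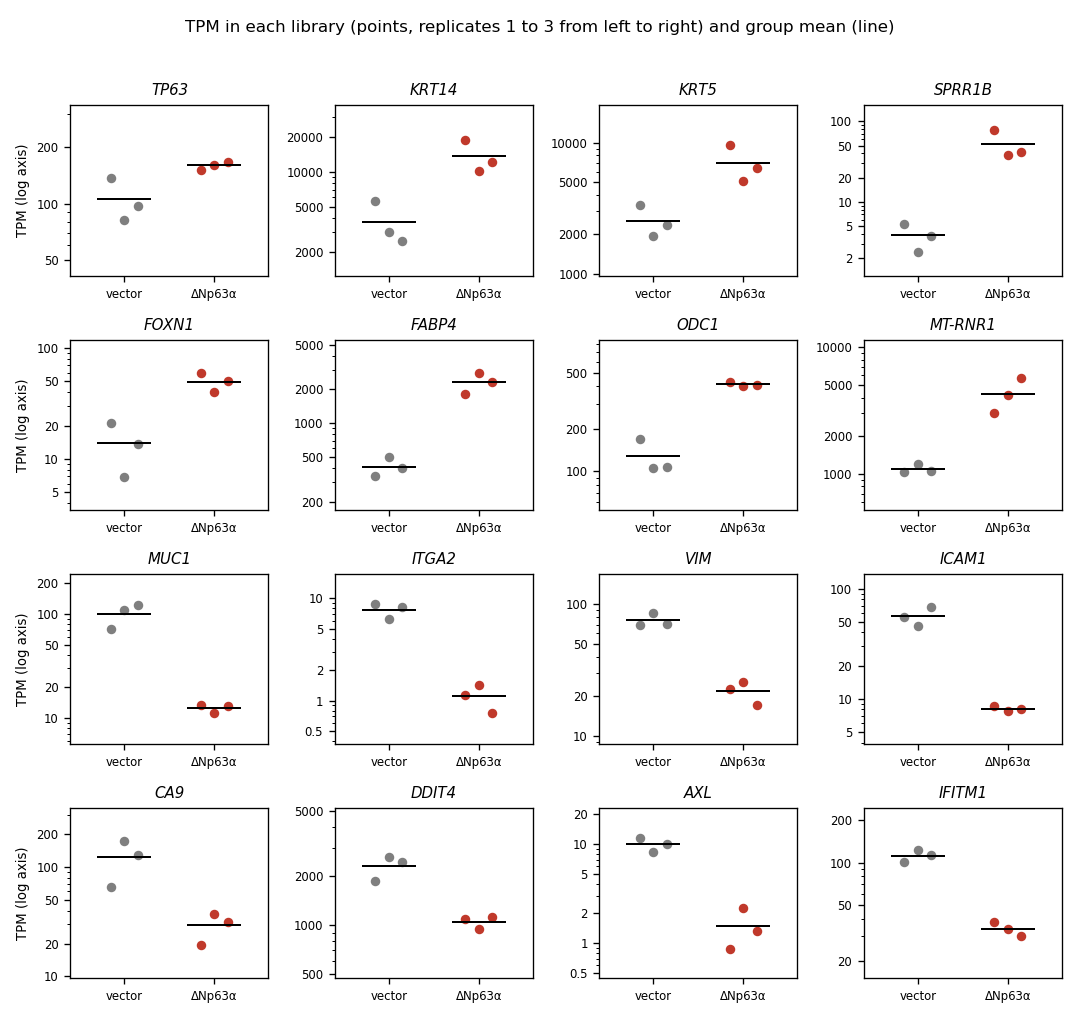
TPM of 16 genes in each library (points on a log axis, replicates 1 to 3 from left to right; the line is the group mean) with vector in grey and ΔNp63α in red. TP63 differs by a factor of 1.51 between the means. KRT14, SPRR1B, FOXN1, FABP4, ODC1 and MT-RNR1 are higher by factors of 3 or more. MUC1, ITGA2, VIM, ICAM1, CA9, AXL and IFITM1 are lower by factors of 3 or more.

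Genes that degrade, cross-link or build extracellular matrix were lower. Of 33 tested proteases, inhibitors and cross-linking enzymes of the matrix, 0 were higher and 26 lower, with a median of -1.25 relative to all genes. The lower count was 22 to 26 when a library was left out and 20 without the genes of chromosomes 11, 15, 21 and X. LOXL2, a lysyl oxidase that cross-links collagen, stood at 66.3, 89.03 and 110.5 TPM with vector and at 5.46, 8.25 and 7.16 TPM with ΔNp63α (log2 fold -3.48 with SE 0.21 and limma adjusted p = 1.08e-06). Every ΔNp63α library was far below the lowest vector library, replicate 1. Its relative LOXL4 fell from 197 ± 28.8 to 65.4 ± 17.9 TPM, and PLOD1, a lysyl hydroxylase of procollagen, from 238 ± 19.2 to 94.2 ± 10.4 TPM (SD, n = 3 each). MMP13, a collagenase, was lower by a factor of 2.41, but the groups overlapped (162, 479 and 453 against 109, 185 and 159 TPM) and the call was lost without ΔNp63α replicate 1, vector replicate 2 or vector replicate 3. The membrane proteases ADAM9 and ADAM17 were not called, at log2 folds of -0.47 and -0.22.

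Of 16 collagen chains 8 were lower and 0 higher. COL12A1, which coats collagen fibrils, fell from 47.1 ± 14.6 to 10.9 ± 2.04 TPM, COL5A1 from 32.2 ± 6.52 to 14.5 ± 1.01 TPM and COL6A1 from 33.7 ± 2.55 to 14.2 ± 1.67 TPM (SD, n = 3 each). COL7A1, the anchoring fibril collagen below the basement membrane of squamous epithelium, fell 1.89-fold. COL1A1, the fibroblast collagen, stood at 17.8, 13.9 and 16.1 and at 18.3, 14.9 and 18.2 TPM and was not called (limma adjusted p = 0.727). Without the genes of chromosomes 11, 15, 21 and X, 5 chains were lower.

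Of 23 genes of epithelial to mesenchymal transition, 2 were higher and 10 lower. VIM, the intermediate filament of mesenchymal cells, stood at 69.7, 85.2 and 70.9 TPM and at 22.7, 25.5 and 17.3 TPM (log2 fold -1.75 with SE 0.18 and limma adjusted p = 5.07e-05), with no overlap. The receptor kinase AXL fell 6.72-fold, the Wnt inhibitor DKK1 4.71-fold, and TGFBI, a matrix protein named for its induction by TGF-beta, from 1003 ± 29.2 to 409.6 ± 9.91 TPM. S100A4, a calcium-binding protein of motile cells, rose, from 104 ± 15.1 to 180.3 ± 18.4 TPM, and so did CNN1, a calponin of smooth muscle, 3.25-fold. In the list of focal adhesion and actin genes, 17 of 47 were lower and 1 higher. ITGA5, the α chain of the fibronectin receptor, stood at 107, 113 and 152 TPM and at 21.3, 21.6 and 23.04 TPM (log2 fold -2.43 with SE 0.17 and limma adjusted p = 2.74e-06), and the actin bundler FSCN1 fell from 581 ± 60.9 to 165 ± 29.99 TPM. The actins themselves were not called: ACTB stood at 2162 and 2113 TPM and ACTG1 at 3303 and 3532 TPM.

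Many transcripts of cytokines, chemokines and the NF-kB pathway were lower. Of 20 cytokines and chemokines, 10 were lower and 2 higher, with a median of -0.69 relative to all genes. The summed level of the listed members went the other way, with means of 562.6 TPM with vector and 649.2 TPM with ΔNp63α. TNFSF10, the death ligand TRAIL, stood at 67.2, 85.3 and 82.5 TPM and at 17.9, 27.5 and 20.7 TPM (log2 fold -1.796 with SE 0.18 and limma adjusted p = 5.62e-05). IL4R, a receptor chain for interleukins 4 and 13, fell 14.97-fold to a mean of 1.42 TPM. CCL5, a T cell chemokine, stood at 60.6, 12.1 and 9.36 TPM and at 3.21, 0.624 and 1.63 TPM, so that vector replicate 1 sets most of its vector mean, and the groups still did not overlap. Of 26 genes of the NF-kB pathway 0 were higher and 12 lower. ICAM1, an adhesion molecule for leukocytes, stood at 55.2, 45.96 and 68.2 TPM and at 8.53, 7.73 and 8.06 TPM (log2 fold -2.64 with SE 0.18 and limma adjusted p = 2.65e-06). TNFAIP2 fell from 338 ± 31.4 to 55.01 ± 5.22 TPM and BCL3, a nuclear IκB protein, from 73.2 ± 3.34 to 15.5 ± 2.395 TPM (SD, n = 3 each). The feedback inhibitors of the pathway fell with them, TNFAIP3 4.11-fold, TNIP1 2.12-fold and NFKBIA 1.597-fold. RELA, the main activating subunit, stood at 76.9 and 55.1 TPM and missed the threshold (limma adjusted p = 0.0549).

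Of 25 EGFR ligands and feedback genes of the ERK cascade, 14 were lower and 1 higher. The ligands fell together: AREG stood at 26.96, 21.8 and 20.6 TPM and at 2.497, 7.23 and 3.72 TPM (log2 fold -2.22 with SE 0.27 and limma adjusted p = 0.000207), TGFA fell from 11.9 ± 1.73 to 1.94 ± 0.764 TPM, and HBEGF from 9.8 ± 0.872 to 2.79 ± 0.962 TPM (SD, n = 3 each). The receptor kinase EPHA2 fell 1.88-fold. DUSP14, a phosphatase of MAP kinases, rose from 204, 167 and 174 to 384, 359 and 369 TPM (log2 fold 1.03 with SE 0.14 and limma adjusted p = 0.000351). Of 21 AP-1 and immediate early genes, 10 were lower and 1 higher. ZFP36, which speeds the decay of cytokine mRNAs, fell 2.89-fold, IER3 4.94-fold and FOS 3.83-fold to a mean of 1.22 TPM, and BATF3 rose 3.399-fold from a mean of 1.75 TPM. MYC stood at 224, 194 and 208 TPM and at 237, 216 and 229.8 TPM and was not called (limma adjusted p = 0.545).

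Among developmental pathways, ligands and receptors of the ephrin, semaphorin and plexin families had the largest share of lower genes. Of 31 tested 18 were lower and 3 higher. The lower count was 10 without vector replicate 3 and 12 without the genes of chromosomes 11, 15, 21 and X. SEMA4B stood at 149, 154 and 204 TPM and at 34.9, 29.97 and 31.9 TPM (log2 fold -2.34 with SE 0.16 and limma adjusted p = 2.94e-06). EFNA1, a ligand of EPHA2, fell from 167 ± 3.14 to 82.5 ± 4.74 TPM, and EFNB1 from 165 ± 20.9 to 68.8 ± 10.6 TPM. Of the lower members 4, SEMA4B, SEMA7A, PLXNA3 and PLXNB3, lie in stretches of the genome where most genes were lower, described further down. Of 26 Notch genes 7 were lower (26.9%, against 14.1% of all genes) and 0 higher, and 12 were lower without vector replicate 2. The ligand JAG1 fell from 13.4 ± 0.115 to 6.02 ± 1.11 TPM, the ubiquitin ligase DTX2 from 60.8 ± 2.83 to 19.5 ± 1.09 TPM and the target HES1 from 109, 136 and 120.3 to 56.6, 59.8 and 58.7 TPM (log2 fold -1.04 with SE 0.14 and limma adjusted p = 0.000458). Of 31 Wnt genes 7 were lower (22.6%, against 14.1% of all genes) and 0 higher. The receptors FZD5, FZD7 and FZD2 were down by factors of 1.99, 1.78 and 1.76.

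Of 34 TGF-beta and BMP genes 8 were lower (23.5%) and 2 higher (5.88%), against 14.1% and 7.34% of all genes. SMAD3, which carries the TGF-beta signal to the nucleus, stood at 33.8, 27.9 and 40.1 TPM and at 13.7, 12.3 and 13.3 TPM (log2 fold -1.295 with SE 0.17 and limma adjusted p = 0.000374), TGFB1 fell 1.71-fold, and the latent binding proteins LTBP1 and LTBP4 fell 2.01-fold and 1.85-fold. The BMP target ID2, an inhibitor of basic helix-loop-helix factors, rose from 30.3, 41.1 and 34.8 to 74.2, 141 and 120.4 TPM (log2 fold 1.59 with SE 0.22 and limma adjusted p = 0.00046), while its relatives ID1 and ID3, which are more abundant, were not called. Without vector replicate 3, 4 genes of this list were lower, and without the genes of chromosomes 11, 15, 21 and X, 5 were. Of 21 targets of YAP and TEAD 8 were lower and 1 higher, and 3 or 4 were lower without vector replicate 1, vector replicate 3 or any 1 of the ΔNp63α libraries. F3, the tissue factor that starts coagulation, stood at 83.8, 92.2 and 83.5 TPM and at 9.14, 16.6 and 12.8 TPM (log2 fold -2.696 with SE 0.197 and limma adjusted p = 4.01e-06). Of 13 genes of the insulin-like growth factor axis 2 were higher and 2 lower (15.4% each, against 7.34% and 14.1% of all genes). The binding proteins IGFBP7 and IGFBP6 fell 2.797-fold and 2.09-fold, and IGFBP2 rose 2.68-fold.

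The response to low oxygen had the largest share of lower genes among the lists with at least 10 tested members. Cells short of oxygen stabilise the factor HIF1A, which binds the core motif ACGTG and raises genes of glucose uptake, glycolysis, pH control and vessel growth. Of 29 such target genes 26 were lower and 0 higher, and the median was -1.21 relative to all genes. CA9, a carbonic anhydrase at the cell surface that controls pH, stood at 65.3, 173 and 128 TPM with vector and at 19.2, 37.5 and 31.2 TPM with ΔNp63α (log2 fold -1.96 with SE 0.32 and limma adjusted p = 0.00123). DDIT4, an inhibitor of mTORC1 signalling, stood at 1875, 2631 and 2448 TPM and at 1095, 944 and 1119.5 TPM (log2 fold -1.13 with SE 0.16 and limma adjusted p = 0.000476). BHLHE40, a repressor shared by the hypoxia response and the circadian clock, stood at 134, 198 and 196 TPM and at 17.2, 22.1 and 20.6 TPM (log2 fold -3.06 with SE 0.18 and limma adjusted p = 1.08e-06). In each of these vector replicate 1 was the lowest vector library and still stood above every ΔNp63α library. NDRG1 fell from 679 ± 209 to 97.4 ± 21.8 TPM, EGLN3, a prolyl hydroxylase that marks HIF subunits for decay, from 88.04 ± 30.7 to 22.04 ± 7.49 TPM, and ANGPTL4, a secreted inhibitor of lipoprotein lipase, from 13.6 ± 6.23 to 1.17 ± 0.2796 TPM (SD, n = 3 each). SLC2A1, the glucose transporter GLUT1, fell 1.79-fold. HIF1A mRNA was not called, at 76.6, 77.4 and 89.01 TPM and at 56.96, 92.03 and 71.6 TPM (limma adjusted p = 0.572).

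The list median of hypoxia genes differed between the vector libraries. Relative to the vector mean and to all genes it stood at -0.60 in vector replicate 1 and at 0.34 and 0.23 in vector replicates 2 and 3, against -1.45, -1.11 and -1.21 in the ΔNp63α libraries. Every ΔNp63α library was below every vector library, and replicate 1 was the lowest of its group in both. With a library left out, 18 genes (without vector replicate 3) to 27 genes (without vector replicate 1) were lower.

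**Figure D4:**
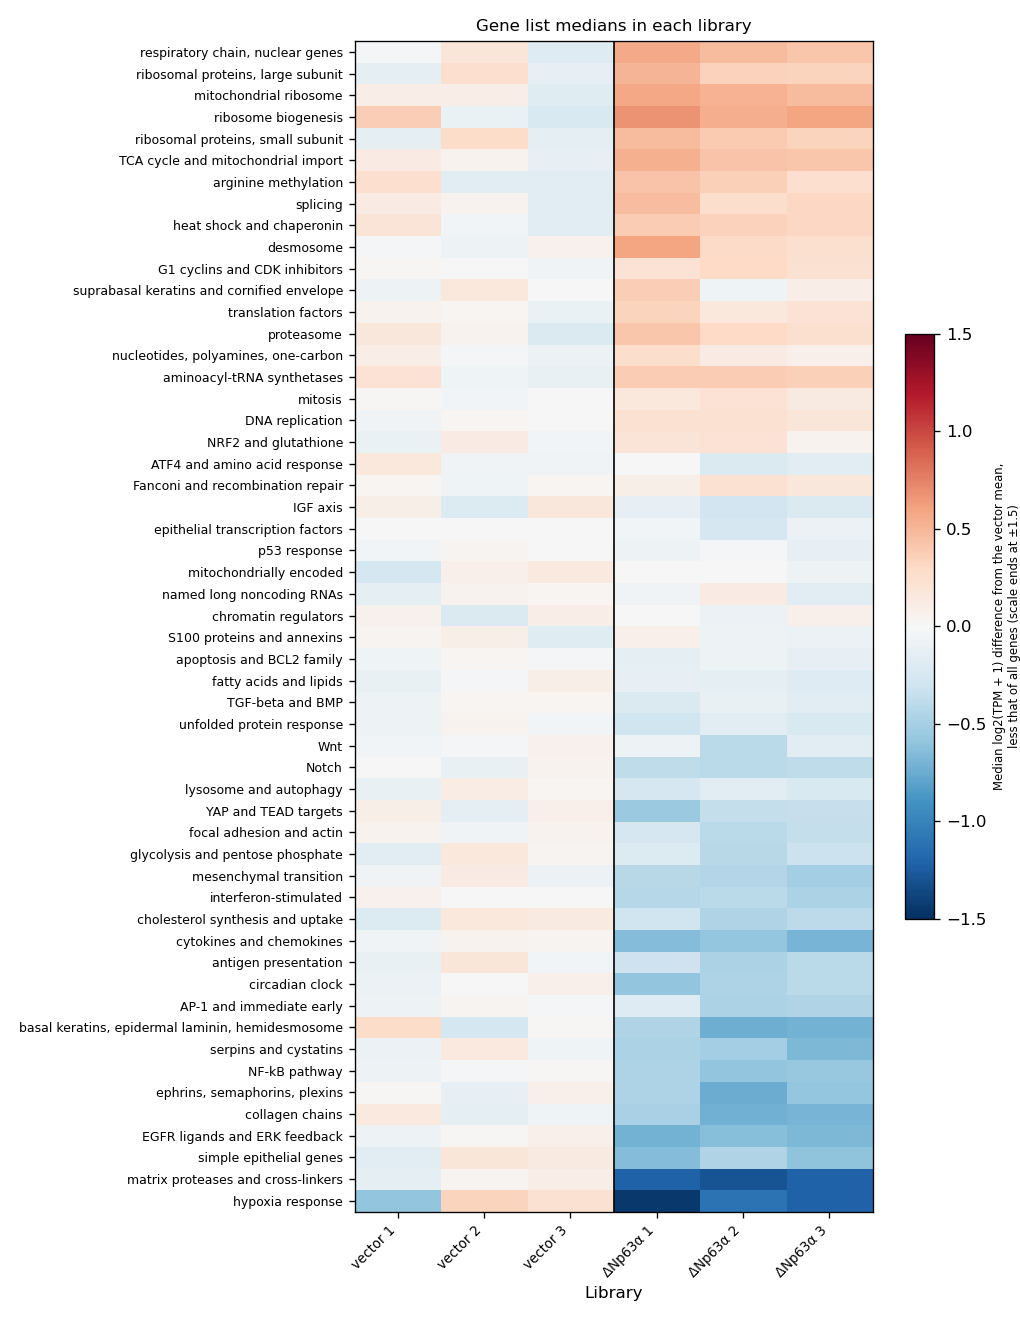
Median log2(TPM + 1) of each gene list in each library, as the difference from the vector mean less that of all genes, with red above and blue below 0. Hypoxia genes are low in vector replicate 1 (-0.60) and lower in the ΔNp63α libraries (-1.45 to -1.11), and ribosome biogenesis genes are high in vector replicate 1 (0.37) and higher with ΔNp63α (0.55 to 0.67).

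The promoters of 3 genes that fell are shown because they carry the HIF core. The windows run from 250 bases before to 50 bases after the annotated start, in RefSeq on GRCh38.p14, and are read 5′ to 3′ on the plus strand of the genome, which is the strand of each gene. Capitals mark ACGTG on either strand, CACGT being its reverse complement.
BHLHE40, chr3:4979187-4979486: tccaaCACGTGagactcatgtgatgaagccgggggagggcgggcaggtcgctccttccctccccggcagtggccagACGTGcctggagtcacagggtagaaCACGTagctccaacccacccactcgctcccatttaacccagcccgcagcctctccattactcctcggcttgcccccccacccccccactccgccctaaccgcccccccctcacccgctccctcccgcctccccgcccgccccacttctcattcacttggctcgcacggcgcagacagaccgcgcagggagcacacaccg
CA9, chr9:35673678-35673977: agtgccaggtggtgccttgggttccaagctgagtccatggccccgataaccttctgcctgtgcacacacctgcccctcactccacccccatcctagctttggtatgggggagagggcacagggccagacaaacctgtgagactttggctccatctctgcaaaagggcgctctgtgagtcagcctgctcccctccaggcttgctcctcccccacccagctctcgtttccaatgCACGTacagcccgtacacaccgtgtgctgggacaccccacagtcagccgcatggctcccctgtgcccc
DDIT4, chr10:72273674-72273973: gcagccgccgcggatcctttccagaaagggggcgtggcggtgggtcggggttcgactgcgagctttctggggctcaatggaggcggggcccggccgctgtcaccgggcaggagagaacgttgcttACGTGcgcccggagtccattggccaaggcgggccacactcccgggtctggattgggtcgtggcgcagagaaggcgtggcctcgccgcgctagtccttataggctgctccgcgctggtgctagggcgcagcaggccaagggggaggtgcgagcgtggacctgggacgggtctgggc
The core is found 4 times in the BHLHE40 window, where 2 of the matches are the strands of 1 palindromic CACGTG, and 1 time each in those of CA9, at 18 bases before the start, and DDIT4, at 125 bases before it. Of 26 tested hypoxia genes with a promoter entry 13 held the core (50%), against 27% of 9830 tested genes with an entry and 21.4% of 35116 promoters in all. A match is a description of the letters and does not show binding.

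Glycolysis and the pentose phosphate pathway had 11 lower and 1 higher of 29 tested genes. The lower ones included HK2, a hexokinase that commits glucose to the pathway, at 60.001, 87.8 and 109 TPM with vector and at 23.7, 27.7 and 27.4 TPM with ΔNp63α (log2 fold -1.63 with SE 0.204 and limma adjusted p = 0.000236). SLC16A3, the lactate exporter MCT4, stood at 156, 141 and 142 TPM and at 52.1, 47.7 and 53.4 TPM (log2 fold -1.504 with SE 0.14 and limma adjusted p = 2.73e-05). The aldolase ALDOC fell from 367 ± 145 to 113 ± 9.501 TPM, the enolase ENO2 from 125 ± 40.5 to 39.5 ± 2.08 TPM and the kinase PGK1 from 2208 ± 501 to 930.0 ± 76.5 TPM (SD, n = 3 each), with vector replicate 1 again the lowest vector library in all 3. The most abundant members were not called: GAPDH stood at 10122 and 8896 TPM (limma adjusted p = 0.412) and ENO1 at 5319.8 and 4339 TPM (limma adjusted p = 0.156). Without the genes of chromosomes 11, 15, 21 and X, 6 members were lower. The ACGTG core was in 9 of 27 promoters of the list (33.3%), near the 27% of all tested genes. It was in 6 of the 11 called members that had a promoter entry.

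Interferon-stimulated genes were lower in part: of 35 tested, 13 were lower and 0 higher, with 7 lower without ΔNp63α replicate 2 and 8 without ΔNp63α replicate 3 or vector replicate 3. IFITM1, a membrane protein that blocks entry of viruses, stood at 102, 122 and 113 TPM with vector and at 37.9, 34.1 and 30.2 TPM with ΔNp63α (log2 fold -1.69 with SE 0.15 and limma adjusted p = 2.43e-05). Its neighbours IFITM2 and IFITM3, which are close copies and may share reads with it, fell 6.25-fold and 2.66-fold. IRF7, the factor that amplifies interferon production, fell from 22.3 ± 1.66 to 5.62 ± 0.522 TPM (SD, n = 3 each). These 4 genes lie near each other on chromosome 11, in 2 neighbouring blocks of 20 tested genes in which 13 and 11 genes were lower whatever their function. Without the genes of chromosomes 11, 15, 21 and X, 6 interferon genes were lower. BST2 and ISG15, which are far more abundant than IFITM1 and lie elsewhere, were not called: ISG15 stood at 832, 369 and 262 TPM and at 388, 331 and 363 TPM, with vector replicate 1 high (limma adjusted p = 0.599). The part of position in these values was not tested.

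Of 26 interferon genes with a promoter entry, 20 held the interferon element GAAANNGAAA on either strand (76.9%), against 2.64% of tested genes. The window of IFITM1 is shown with both of its matches in capitals, from RefSeq on GRCh38.p14 and on the plus strand, which is that of the gene.
IFITM1, chr11:313790-314089: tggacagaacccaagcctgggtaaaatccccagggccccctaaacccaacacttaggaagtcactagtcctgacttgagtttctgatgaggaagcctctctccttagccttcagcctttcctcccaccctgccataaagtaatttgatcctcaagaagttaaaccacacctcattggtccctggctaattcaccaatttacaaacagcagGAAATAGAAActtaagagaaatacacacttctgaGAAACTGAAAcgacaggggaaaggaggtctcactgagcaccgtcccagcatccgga
The list was drawn up from genes known to respond to interferon, so the share describes the list and not the change under ΔNp63α.

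Antigen presentation had 12 lower and 1 higher of 27 tested genes. The class I heavy chains fell, HLA-B from 857, 1155 and 866 TPM to 567, 553 and 539 TPM (log2 fold -0.78 with SE 0.15 and limma adjusted p = 0.00344), HLA-C 1.92-fold, HLA-F 2.03-fold and HLA-E 2.3-fold. Reads of these chains can be shared, so each single value is uncertain. Of the lower genes HLA-C, HLA-E and HLA-F lie in neighbouring blocks of chromosome 6 where 11 and 10 of 20 tested genes were lower. B2M, the light chain common to all of them, stood at 2104 and 1712 TPM and was not called (limma adjusted p = 0.243). TAPBP, which loads peptide onto class I, fell 2.09-fold, and CD74, the invariant chain of class II, 2.43-fold. HLA-DRA, a class II chain, was the higher gene, at 2.59, 2.33 and 3.46 and at 9.53, 12.02 and 11.02 TPM.

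Genes that make ribosomes and proteins were higher, though the counts depended on single libraries. Higher calls were also more frequent among abundant genes in general, with 12.7% of all genes above 38 TPM. Of 32 tested proteins of the small subunit 10 were higher and 0 lower, with a median 0.39 above all genes, and of 46 of the large subunit 20 were higher and 1 lower, with a median 0.41 above. RPS23 stood at 28.6, 37.7 and 45.1 TPM with vector and at 95.4, 119 and 122 TPM with ΔNp63α (log2 fold 1.58 with SE 0.18 and limma adjusted p = 0.000139). RPL30 stood at 95.98, 98.98 and 89.3 TPM and at 178, 159.5 and 189 TPM (log2 fold 0.88 with SE 0.14 and limma adjusted p = 0.00104). Neither overlapped between groups. RPS7 rose 1.64-fold, RPL23 1.64-fold and RPL34 1.64-fold, whereas the abundant RPS2, RPLP0 and RPL8 were not called, at log2 folds of 0.11, 0.21 and 0.03. Many ribosomal protein genes have near-identical pseudogenes that can take their reads. All cytosolic ribosomal proteins together took 10.4%, 12.2% and 9.82% of TPM with vector and 13.5%, 13.3% and 13.1% with ΔNp63α, so vector replicate 2 lay nearest to the ΔNp63α libraries. For the small subunit 4 genes were higher without vector replicate 3, 5 without any 1 of the ΔNp63α libraries and 16 without vector replicate 2. For the large subunit 5 were higher without vector replicate 3 and 7, 10 and 4 without ΔNp63α replicates 1, 2 and 3.

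Of 52 genes of ribosome biogenesis 19 were higher and 0 lower, with a median 0.61 above all genes. MRTO4, which prepares the stalk of the large subunit, stood at 163, 91.9 and 86.2 TPM and at 246, 214 and 212 TPM (log2 fold 1.03 with SE 0.22 and limma adjusted p = 0.00576). WDR43, a factor of the small subunit processome, stood at 51.2, 31.5 and 30.6 TPM and at 63.8, 77.4 and 81.95 TPM (log2 fold 0.99 with SE 0.203 and limma adjusted p = 0.00514). In both, vector replicate 1 was well above the other vector libraries and below all ΔNp63α libraries. The list as a whole moved alike: its median stood at 0.37, -0.10 and -0.23 in the vector libraries and at 0.67, 0.55 and 0.59 with ΔNp63α. With a library left out, 40 genes were higher without vector replicate 1, 10 without vector replicate 2, 2 without vector replicate 3, and 12, 10 and 6 without ΔNp63α replicates 1, 2 and 3. NPM1 and FBL, abundant nucleolar proteins, missed the threshold at log2 folds of 0.45 and 0.35 (limma adjusted p = 0.0532 and 0.101).

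Ribosome biogenesis genes are known targets of MYC, which binds the E-box CACGTG. Of 43 tested members with a promoter entry 15 held that motif (34.9%), against 10.2% of tested genes and 7.26% of all promoters. Of the 16 called members with an entry 5 held it, so the motif was not confined to called genes. A part of MYC in the change under ΔNp63α was not tested. CACGTG contains the ACGTG searched above and reads the same on both strands. The windows of the pair just described are shown because they hold the motif. They are from RefSeq on GRCh38.p14, both genes being on the plus strand, with CACGTG in capitals.
MRTO4, chr1:19251555-19251854: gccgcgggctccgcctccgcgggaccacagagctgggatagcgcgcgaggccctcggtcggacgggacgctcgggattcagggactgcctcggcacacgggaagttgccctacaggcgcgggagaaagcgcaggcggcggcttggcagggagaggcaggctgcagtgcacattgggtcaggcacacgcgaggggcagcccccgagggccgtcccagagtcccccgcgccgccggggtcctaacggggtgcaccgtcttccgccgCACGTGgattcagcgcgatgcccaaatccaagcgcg
WDR43, chr2:28894417-28894716: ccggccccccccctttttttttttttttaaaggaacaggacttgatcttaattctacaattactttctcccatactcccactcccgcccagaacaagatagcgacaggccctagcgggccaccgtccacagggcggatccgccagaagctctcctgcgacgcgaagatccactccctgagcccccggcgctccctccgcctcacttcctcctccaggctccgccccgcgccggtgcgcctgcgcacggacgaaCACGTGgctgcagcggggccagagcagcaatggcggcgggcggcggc
The match begins 14 bases after the start in MRTO4 and 3 bases after it in WDR43.

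ODC1, the first enzyme of polyamine synthesis, stood at 170.2, 106 and 106 TPM and at 429.8, 404 and 406 TPM (log2 fold 1.73 with SE 0.18 and limma adjusted p = 7.51e-05), with the highest vector library, replicate 1, well below the ΔNp63α libraries. In its list of nucleotide, polyamine and one-carbon genes 5 of 37 were higher (13.5%) and 1 lower, and 12 were higher without vector replicate 1. The share of higher genes was 7.34% over all genes and 12.7% over those above 38 TPM. MAT2A, which makes the methyl donor S-adenosylmethionine, rose from 67.97 ± 20.6 to 149.9 ± 6.81 TPM, UMPS, of pyrimidine synthesis, from 57.4 ± 16.5 to 119.9 ± 4.15 TPM, and NME1, a nucleoside diphosphate kinase, 1.82-fold. Of 47 translation factors 7 were higher (14.9%) and 1 lower, of which EEF1B2 rose from 740.0 ± 55.2 to 1295 ± 21.9 TPM (SD, n = 3 each), with counts of 1 to 11 when a library was left out: 3 and 1 without ΔNp63α replicates 2 and 3, 11, 2 and 1 without vector replicates 1, 2 and 3. Of 23 aminoacyl-tRNA synthetases 3 were higher (13%) and 1 lower, 10 higher without vector replicate 1, 1 without ΔNp63α replicate 1 and 0 without any other library.

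Of 58 splicing genes 17 were higher and 1 lower, and 10, 9 and 7 were higher without ΔNp63α replicate 2, ΔNp63α replicate 3 and vector replicate 3. SRSF1, a serine and arginine rich factor that selects exons, stood at 24.5, 18.4 and 17.9 TPM and at 48.3, 63.4 and 56.8 TPM (log2 fold 1.43 with SE 0.18 and limma adjusted p = 0.00021). SRSF6 rose from 52.2 ± 5.46 to 96.3 ± 9.14 TPM, and the Sm and Lsm proteins SNRPD3 and LSM3 rose by factors of 1.87 and 1.87. Of 14 genes of arginine methylation, a modification that Sm proteins carry, 4 were higher, PRMT5, its partner WDR77, PRMT6 and PRMT9. PRMT5 stood at 95.4, 61.1 and 68.6 TPM and at 131, 97 and 118 TPM (log2 fold 0.63 with SE 0.19 and limma adjusted p = 0.0325). The 4 calls were fragile: 1 was made without ΔNp63α replicate 2 or 3, and 0 were made without ΔNp63α replicate 1, vector replicate 2 or vector replicate 3.

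Of 38 heat shock proteins and chaperonin subunits 10 were higher and 1 lower, with 5 higher without ΔNp63α replicate 3 or vector replicate 3. HSPA8, the constitutive chaperone of the cytosol, stood at 822, 431 and 482 TPM and at 1306, 1168 and 1279.6 TPM (log2 fold 1.17 with SE 0.21 and limma adjusted p = 0.0023). The chaperonin subunit CCT2 rose 1.84-fold, and CRYAB, a small heat shock protein, 2.47-fold. Of 33 genes of the unfolded protein response in the endoplasmic reticulum 8 were lower (24.2%) and 1 higher (3.03%). Over all genes the shares were 14.1% and 7.34%. The lower count was 4 without ΔNp63α replicate 1, ΔNp63α replicate 3 or vector replicate 3. The lower count was also 4 without the genes of chromosomes 11, 15, 21 and X. PDIA4, a disulfide isomerase, fell from 425 ± 32.7 to 278 ± 15.2 TPM (SD, n = 3 each) and EDEM1, which sends misfolded glycoproteins to decay, 1.75-fold. Of 40 proteasome genes 5 were higher (12.5%, against 7.34% of all genes and 12.7% of those above 38 TPM) and 0 lower. The higher count was 0 without vector replicate 3 and 15 without vector replicate 1. It was 1 without ΔNp63α replicate 2, ΔNp63α replicate 3 or vector replicate 2.

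Of 76 tested subunits of the respiratory chain and ATP synthase 38 were higher and 0 lower, with a median 0.51 above all genes. NDUFB3, of complex I, stood at 31.2, 29.7 and 21.02 TPM with vector and at 52.7, 52.8 and 60.7 TPM with ΔNp63α (log2 fold 1.01 with SE 0.18 and limma adjusted p = 0.00204). COX7C, of complex IV, stood at 425, 549.7 and 428 TPM and at 707, 981 and 856 TPM (log2 fold 0.86 with SE 0.16 and limma adjusted p = 0.00342). NDUFS5, among the most abundant of the called members, rose from 1156 ± 174 to 1843 ± 87.8 TPM (SD, n = 3 each), and ATP5B, the catalytic subunit of ATP synthase, missed the threshold at a log2 fold of 0.34. The counts were 24, 25 and 17 without ΔNp63α replicates 1, 2 and 3 and 14 without vector replicate 3. Of 74 proteins of the mitochondrial ribosome 30 were higher and 0 lower, with a median 0.49 above, and 15 without ΔNp63α replicate 3 and 14 without vector replicate 3. MRPL1 stood at 17.9, 12.6 and 12.4 TPM and at 33.3, 51.4 and 41.4 TPM (log2 fold 1.49 with SE 0.203 and limma adjusted p = 0.000405), MRPL15 rose 2.14-fold and MRPL3 1.77-fold. Of 42 genes of the citric acid cycle and of import into mitochondria 15 were higher and 2 lower, with 7 and 6 higher without ΔNp63α replicate 3 and vector replicate 3. The import subunits TIMM17A and TOMM22 rose 1.81-fold and 1.77-fold, and HSPA9, the chaperone that pulls proteins into the matrix, 1.698-fold.

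The transcripts made inside mitochondria went both ways. Of 15 tested 2 were higher (13.3%), the 12S and 16S ribosomal RNAs, and 3 lower (20%), MT-CO1, MT-ATP6 and MT-ND4. Over all genes the shares were 7.34% and 14.1%. MT-RNR1, the 12S RNA, stood at 1038, 1189.7 and 1061 TPM and at 3016, 4168 and 5748 TPM (log2 fold 1.93 with SE 0.202 and limma adjusted p = 6.98e-05). MT-RNR2, the 16S RNA, stood at 4169, 5043 and 4992 TPM and at 6866, 7732 and 7914 TPM (log2 fold 0.67 with SE 0.14 and limma adjusted p = 0.00619). The lower count was 0 after median-of-ratios rescaling, with no filter, with no intensity trend and without vector replicate 3 or any 1 of the ΔNp63α libraries, and 1 without vector replicate 2 or after quantile normalization. The messenger RNAs of mitochondria took 19.4%, 22.8% and 25.7% of TPM with vector and 17.2%, 19.7% and 17.6% with ΔNp63α. TPM rescaled without mitochondrially encoded genes gave 782 higher and 2247 lower genes, or 25.8% higher.

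Few cell cycle genes were called. Of 62 DNA replication genes 5 were higher and 2 lower, and of 56 mitotic genes 4 were higher and 1 lower, shares near the 7.34% and below the 14.1% of all genes. Their medians were still 0.20 and 0.16 above that of all genes, with 44 and 41 folds above 0. In single libraries the replication median stood at -0.051 to 0.027 with vector and at 0.176 to 0.233 with ΔNp63α. That of mitosis stood at -0.045 to 0.016 and at 0.138 to 0.218. The higher counts were 3 and 1 without ΔNp63α replicate 2, 3 and 2 without ΔNp63α replicate 3, 3 and 1 without vector replicate 3, and 2 for mitosis without vector replicate 2. PCNA, the sliding clamp of replication, stood at 633, 667 and 575 TPM and at 598, 771 and 685 TPM (limma adjusted p = 0.574), and MCM7, of the replicative helicase, at 487 and 465 TPM. ORC5, of the origin recognition complex, rose 1.74-fold. The licensing factor CDT1 fell from 287 ± 40.8 to 159 ± 21.7 TPM (SD, n = 3 each). SPC25, of the kinetochore, rose 1.92-fold, and CDC25B, a phosphatase that starts mitosis, fell 1.83-fold. Of 25 G1 cyclins and inhibitors 7 were higher (28%) and 3 lower (12%), against 7.34% and 14.1% of all genes. The higher count was 4 without ΔNp63α replicate 2 or vector replicate 2, 1 without ΔNp63α replicate 3 and 2 without vector replicate 3, and the lower count 0 without vector replicate 3 or any 1 of the ΔNp63α libraries. CCND2, cyclin D2, rose from 10.4, 9.01 and 9.08 to 20.2, 22.9 and 25.6 TPM (log2 fold 1.18 with SE 0.17 and limma adjusted p = 0.000534). CDKN1A, the p21 inhibitor and a target of both p53 and p63, stood at 174, 182 and 180.1 TPM and at 126, 129 and 131 TPM, a lower call (log2 fold -0.47, limma adjusted p = 0.0234) that was lost without vector replicate 3 or any 1 of the ΔNp63α libraries.

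Of 37 genes of the p53 response, whose DNA elements p63 shares, 5 were higher (13.5%) and 7 lower (18.9%), shares not far from the 7.34% and 14.1% of all genes. Of these FBXW7, which marks cyclin E and MYC for decay, rose from 4.15 ± 0.627 to 10.6 ± 2.04 TPM, TRIAP1 rose 1.62-fold, BBC3, the death inducer PUMA, fell 2.08-fold and SUSD6 1.96-fold (SD, n = 3 each). SFN, the 14-3-3σ protein of keratinocytes, stood at 2521 and 1925 TPM and was not called (limma adjusted p = 0.236). Without ΔNp63α replicate 2 or 3, 3 were higher, and 4 and 3 were lower without ΔNp63α replicate 1 and vector replicate 3. Of 34 genes of apoptosis 6 were lower (17.6%) and 1 higher (2.94%), against 14.1% and 7.34% of all genes. The lower count was 2 without vector replicate 3 and 3 without the genes of chromosomes 11, 15, 21 and X. BOK, a BCL2 relative, fell from 19.1 ± 2.798 to 5.76 ± 0.527 TPM, and CYCS, cytochrome c, rose 1.78-fold. Of 41 genes of the Fanconi pathway and recombination 2 were higher (4.88%) and 1 lower (2.44%). Of 48 chromatin regulators 0 were higher and 4 lower (8.33%). All these shares were below the 7.34% and 14.1% of all genes. Among the lower regulators JARID2, a partner of PRC2, fell 1.83-fold. The lower count of chromatin regulators was 1 or 2 without any 1 library other than vector replicate 2.

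In lipid metabolism FABP4, a carrier of fatty acids best known from fat cells, stood at 337, 499 and 397 TPM with vector and at 1810, 2780 and 2340.5 TPM with ΔNp63α (log2 fold 2.48 with SE 0.19 and limma adjusted p = 5.05e-06). Its epidermal relative FABP5 was not called, at 401 and 471 TPM. In the list of fatty acid genes 8 of 38 were lower (21.1%) and 2 higher (5.26%), against 14.1% and 7.34% of all genes. The higher genes were FABP4 and ACADM, of medium-chain oxidation, and 5 were lower without ΔNp63α replicate 2 or vector replicate 3. ACSS2, which activates acetate, fell from 59.5 ± 14.7 to 23.8 ± 1.64 TPM, SCD, the desaturase, from 753 ± 149.9 to 436 ± 46.1 TPM and PLIN3, a coat protein of lipid droplets, from 197 ± 24.04 to 109.9 ± 4.65 TPM (SD, n = 3 each). Of 31 cholesterol genes 13 were lower and 1 higher, with 8 lower without ΔNp63α replicate 1 or vector replicate 3. INSIG1, which holds the SREBP complex in the endoplasmic reticulum and is itself a target of SREBP, stood at 268, 499 and 468 TPM and at 105, 209.8 and 183 TPM (log2 fold -1.31 with SE 0.27 and limma adjusted p = 0.00534), and INSIG2 and MSMO1, a sterol oxidase, fell by factors of 2.91 and 2.67. In INSIG1, INSIG2 and MSMO1 replicate 1 was the lowest library of its group on both sides. FDFT1, of squalene synthesis, missed the threshold (limma adjusted p = 0.0546).

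Genes of the NRF2 and glutathione response split into 7 higher (16.7%) and 5 lower (11.9%) of 42, against 7.34% and 14.1% of all genes. The higher count ran from 2 to 12 when a library was left out: 4, 3 and 2 without ΔNp63α replicates 1, 2 and 3, and 12 without vector replicate 1. The lower count was 3 without ΔNp63α replicate 1, ΔNp63α replicate 2 or vector replicate 3. AKR1B10, an aldo-keto reductase, stood at 179, 197 and 180.3 TPM and at 884, 884 and 927 TPM (log2 fold 2.27 with SE 0.13 and limma adjusted p = 7.15e-07), with spreads far smaller than the difference. GSTP1 and PRDX1, which are more abundant, were not called, at log2 folds of 0.06 and 0.25. OSGIN1 fell 1.92-fold. The list of ATF4 and amino acid genes had 4 higher (14.8%) and 3 lower (11.1%) of 27. PSAT1, of serine synthesis, rose from 93.4 ± 14.9 to 183 ± 10.4 TPM, and STC2, a secreted glycoprotein, fell from 63.99 ± 7.67 to 27.3 ± 1.86 TPM. The higher count there was 1 or 2 without any library except vector replicate 1.

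Of 54 genes of lysosomes and autophagy 18 were lower and 0 higher, and 11 were lower without the genes of chromosomes 11, 15, 21 and X. CTSB, a cysteine cathepsin, fell from 237 ± 28.2 to 134 ± 9.77 TPM, its relative CTSS from 18.1 ± 6.603 to 4.59 ± 1.27 TPM and CTSD, an aspartic cathepsin, from 101 ± 16.1 to 35.1 ± 7.43 TPM (SD, n = 3 each). SMPD1, which splits sphingomyelin, stood at 38.3, 54.5 and 54.97 TPM and at 12.8, 12.3 and 14.8 TPM (log2 fold -1.796 with SE 0.18 and limma adjusted p = 5.29e-05), and PSAP, the precursor of the saposins, fell 1.58-fold. NEU1, a sialidase, and, outside the list, GRN, progranulin, fell from 45.3 ± 4.28 to 22.5 ± 1.36 and from 590.5 ± 33.98 to 313 ± 15.95 TPM. ATP6AP1 and ATP6AP2, accessory subunits of the proton pump of lysosomes, fell from 47.97 ± 2.09 to 19.8 ± 2.53 and from 27.9 ± 4.103 to 12.4 ± 2.73 TPM, and both lie in lowered stretches of chromosome X described further down. The pump subunits ATP6V1F and ATP6V0E1, which are more abundant, stood at log2 folds of 0.16 and 0.14 and were not called.

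Of 22 serpins and cystatins 12 were lower and 2 higher. SERPINB1, an inhibitor of neutrophil elastase, stood at 174, 186 and 176 TPM and at 40.3, 48.9 and 37.6 TPM (log2 fold -2.06 with SE 0.15 and limma adjusted p = 3.88e-06), and SLPI, a secreted elastase inhibitor of mucosa, fell from 634 ± 95.5 to 362 ± 23.6 TPM. Of 21 S100 proteins and annexins 3 were higher (14.3%) and 6 lower (28.6%), against 7.34% and 14.1% of all genes. The higher count was 1 without ΔNp63α replicate 1, ΔNp63α replicate 3, vector replicate 2 or vector replicate 3. The lower count was 2 without ΔNp63α replicate 3 and 3 without vector replicate 1. ANXA1 fell from 175 ± 18.6 to 93.9 ± 23.3 TPM and S100A10 from 1252 ± 143 to 680.5 ± 76.3 TPM (SD, n = 3 each). S100A2, a p63 target of squamous epithelium, stood at 2179, 1351 and 977 TPM and at 1804, 836 and 1233 TPM and was not called, with replicate 1 the highest in either group. Of 19 clock genes 9 were lower and 1 higher, 5 lower without vector replicate 3. PER1, a clock repressor, fell 2.06-fold, and the output factor DBP 1.97-fold.

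Among named long noncoding RNAs 3 of 26 were higher (11.5%) and 5 lower (19.2%), against 7.34% and 14.1% of all genes. The lower count was 3 without vector replicate 3. UCA1, first described in bladder carcinoma, stood at 54.1, 68.8 and 90.8 TPM and at 2.51, 10.2 and 7.24 TPM (log2 fold -3.36 with SE 0.35 and limma adjusted p = 6.44e-05). MIR205HG, the host gene of an epithelial microRNA, fell from 70.1 ± 9.08 to 30.6 ± 2.53 TPM. DANCR, a transcript named for its block of differentiation, rose from 12.4 ± 0.685 to 28.2 ± 2.12 TPM, and GAS5, a host gene of small nucleolar RNAs, from 191 ± 30.2 to 369 ± 31.9 TPM (SD, n = 3 each).

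Genes outside these lists were among the larger changes. FOXQ1, a forkhead factor, stood at 24.3, 28.7 and 35.9 TPM and at 119, 133 and 162 TPM (log2 fold 2.19 with SE 0.18 and limma adjusted p = 1.01e-05). SLC7A8, a transporter of neutral amino acids, rose 4.17-fold and POF1B, an actin-binding protein of epithelial junctions, 4.87-fold. LCN2, the iron-binding lipocalin, stood at 51.6, 143 and 138 TPM and at 7.99, 13.2 and 12.3 TPM (log2 fold -3.09 with SE 0.33 and limma adjusted p = 7.96e-05), with vector replicate 1 below the other vector libraries. SOCS3, which curbs cytokine receptors, fell from 23.1 ± 4.502 to 1.93 ± 0.453 TPM, TGM2, a transglutaminase, from 36.9 ± 13.2 to 3.55 ± 0.691 TPM, PCDH1, a protocadherin, from 15.8 ± 3.29 to 0.696 ± 0.111 TPM and LRG1, a secreted glycoprotein, from 27.97 ± 3.82 to 2.16 ± 0.974 TPM (SD, n = 3 each). Some changes near 1 on the log2 scale were measured with little spread. ZWINT, of the kinetochore, rose from 117 ± 11.4 to 234 ± 23.8 TPM, the splicing factor PHF5A from 106 ± 12.5 to 204 ± 10.9 TPM and H2AFZ, a histone variant, from 401 ± 51.8 to 754 ± 74.1 TPM. STOM, a membrane scaffold, fell from 296 ± 12.8 to 157 ± 5.74 TPM and CDA, cytidine deaminase, from 250.3 ± 24.8 to 134 ± 9.74 TPM.

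Lower genes were unevenly spread over the chromosomes. On chromosome X 150 of 399 tested genes were lower (37.6%) and 18 higher (4.51%), against 14.1% and 7.34% over all genes. On chromosome 15, 96 of 390 were lower (24.6%) and 7 higher (1.79%), on chromosome 21, 28 of 127 (22%) and 2, and on chromosome 11, 149 of 720 (20.7%) and 37. On chromosome 13 the balance was the other way, with 36 of 230 higher (15.7%) and 12 lower (5.22%). Gene order here comes from the RefSeq gene table of GRCh38.p14 and serves only to say which genes neighbour each other.

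Cut into 625 runs of 20 or, at chromosome ends, up to 39 neighbouring tested genes, 13 runs had at least 50% of their genes lower, and 6 of these were among the 19 runs of chromosome X. None of the 625 had more than 7 genes higher. The run from PRRG1 to FUNDC1 on X had 12 of 20 lower and a median log2 fold of -1.01. In single libraries its median stood at -0.094, 0.069 and 0.16 with vector and at -1.205, -0.824 and -1.032 with ΔNp63α. In the run from MMGT1 to MTM1 13 of 20 were lower and the median was -0.71. In contrast the 4 adjoining runs from TAF9B to UTP14A on the same chromosome had medians between -0.06 and 0.11. On chromosome 11 the run from BET1L to PHRF1 had 13 of 20 lower, with all 20 folds below 0 and a median of -0.85, and on chromosome 15 that from ARIH1 to CYP1A1 had 11 of 20 and -0.72. The medians of all runs reached from -1.01 to 0.36, and the middle 90% of them from -0.37 to 0.17.

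**Figure D5:**
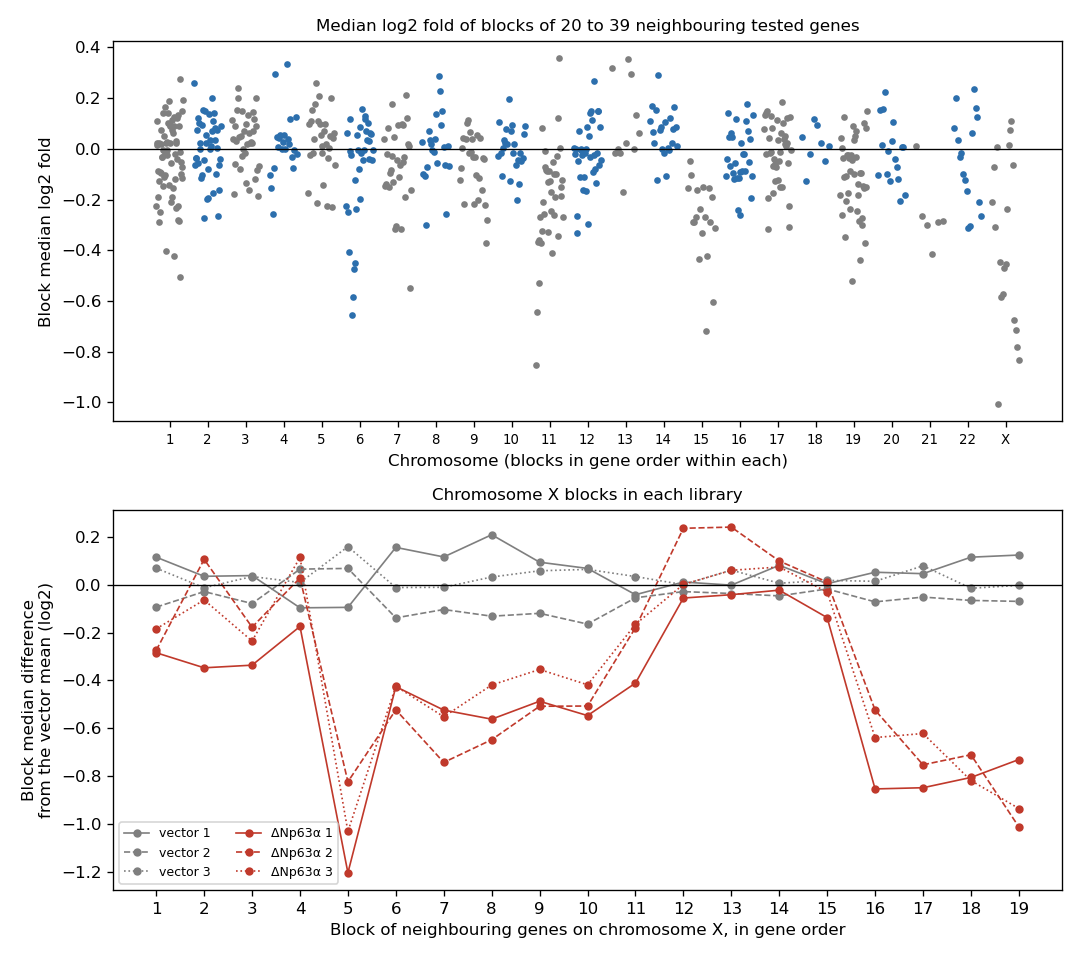
Above, the median log2 fold of each run of 20 to 39 neighbouring tested genes (points, in gene order within each chromosome); below, the median difference from the vector mean in each library for the 19 runs of chromosome X, with vector in grey and ΔNp63α in red. On X all 3 ΔNp63α libraries lie below the vector libraries in runs 5 to 10 and 16 to 19 and close to them in runs 12 to 15.

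The 13 lowered runs held members of some lists and not of others. None of the tested hypoxia, cytokine, simple epithelial, EGFR, TGF-beta, Notch or clock genes lay in these runs. Such lists can still have lower genes elsewhere on the same chromosomes. Without the genes of chromosomes 11, 15, 21 and X, the lower TGF-beta genes went from 8 to 5 and the lower Notch genes from 7 to 6. The lists of interferon and antigen presentation genes had 4 and 5 members there, all of them lower, and the lysosome list 3. Of 7 genes in a list of MAGE family and cancer-testis genes 5 were lower, 3 of them on X. MAGEB2 fell from 12.8 ± 2.98 to 0.733 ± 0.365 TPM and MAGED2 from 137 ± 12.8 to 68.6 ± 3.701 TPM, and on another chromosome PRAME fell from 47.4 ± 0.958 to 28.2 ± 4.71 TPM (SD, n = 3 each). Without the genes of chromosomes 11, 15, 21 and X, 871 genes were higher and 1414 lower of 11746 tested. The part of chromosomal position in the response was not tested.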

How the data were processed

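Per the labels' protocols, RNA was treated with DNase during extraction and a service provider prepared the libraries. TPM per gene was deposited by the authors for 6 libraries in 1 table; the submitters' processing notes name Bowtie, featureCounts, FastQC, hg19, GRCh37 and DESeq2 1.24.0, without saying which step gave TPM. Every library sums to 1000000 TPM, which keeps no depth, so the depth is unknown and no counting intervals are given. No listed value is 0, so a gene at 0 in any library is missing from the table. A blank row was left out, 9 symbols that had turned into dates were restored from gene IDs, and 99.93% of IDs matched the names table.

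Genes with a mean of at least 1 TPM were tested on log2(TPM + 1) with limma 3.58.1 (R 4.3.3, intensity trend, two-sided) and Benjamini-Hochberg adjustment over all 13382 genes, with calls at 0.05. A pseudocount of 1 understates the folds of low genes. The procedure was tested on simulated data. Summaries and figures used Python 3.11.15 with pandas 2.3.3, NumPy 2.4.6 and Matplotlib 3.10.9. Motifs were counted on both strands of RefSeq promoters of GRCh38.p14. List medians are given less the median log2 fold of all genes, which was -0.04.

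The members and the gene lists were chosen with earlier results of these data known. Named were TP63 and PRMT5; in each list up to 5 called genes of largest fold and non-overlapping groups, up to 3 called and 2 uncalled genes of highest mean TPM; and over all genes those ranked 9 to 24 by fold in each direction, the 10 with the largest difference in mean TPM in each direction and the most precise ones. Other genes were named after their values were seen, as all calls of a short list (MT-CO1, MT-ATP6, MT-ND4, WDR77, PRMT6, PRMT9) or as members of lowered runs. The alternatives were other pseudocounts, filters and scalings, no trend, a replicate block, single libraries left out and 4 chromosomes left out, the last chosen after seeing the data. Some genes that this rule named are not reported here. The PRMT5 knockdown and chromatin samples were not analysed here.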

Additional observations from a re-analysis of the deposited data

How the results depend on the processing

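Across 15 alternatives 0 genes were called in the direction opposite to the reported one. The number of higher genes was 1527 after quantile normalization. The lower counts of some lists were smaller without the genes of chromosomes 11, 15, 21 and X, with 6 for glycolysis, 6 for interferon and 11 for lysosomes. There were 20 for the matrix list, 12 for ephrins and semaphorins, 5 for collagens and 5 for TGF-beta. The unfolded protein response had 4 and apoptosis 3. Small-subunit ribosomal proteins had 6 higher genes with no filter, 5 with no intensity trend, 4 after quantile normalization, 17 with the replicate block and 6 without mitochondrially encoded genes, and large-subunit proteins 9 with no trend, 10 after quantile normalization and 13 without mitochondrially encoded genes. With no trend 23 respiratory chain genes and 6 heat shock genes were higher. The cause was not tested.

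The lowest and highest counts with 1 library left out were 417 and 1431 for higher genes and 1150 and 1947 for lower genes. Among higher counts they were 5 and 14 for heat shock proteins, 14 and 37 for the mitochondrial ribosome, 14 and 36 for the respiratory chain, 4 and 21 for large-subunit and 4 and 16 for small-subunit ribosomal proteins, 2 and 40 for ribosome biogenesis, 7 and 24 for splicing and 6 and 22 for the citric acid cycle and import. Among lower counts they were 8 and 14 for cholesterol, 10 and 20 for ephrins and semaphorins and 7 and 13 for interferon genes. The median of the insulin-like growth factor list turned from below to above that of all genes with no filter (0.013), and with 1 library left out it ran from -0.247 without vector replicate 2 to 0.032 without vector replicate 3.

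Replicate numbers were not taken to pair the libraries. The deviations of same-numbered libraries from their group means correlated at 0.324, 0.231 and 0.0858, the last under 0.1, and vector replicate 3 correlated best with ΔNp63α replicate 2 (0.137). With the replicate block 1473 genes were higher and 2416 lower, and ribosome biogenesis had 32 higher genes.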

Other observations

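Among classes of gene, pseudogenes stood apart in their calls, with more higher than lower. Of 476 genes that RefSeq annotates as pseudogenes 90 were higher and 23 lower. Of 107 genes in its separate class of transcribed pseudogenes 9 were higher and 14 lower. The larger classes had more lower than higher genes, as all 13382 tested genes did (982 higher and 1893 lower). Of 11450 protein-coding genes 807 were higher and 1700 lower, and of 647 long noncoding RNAs 31 and 95. Pseudogenes can share reads with their parent genes, and the part of this in their calls was not tested. The 27 listed histone genes took 0.0477%, 0.0476% and 0.047% of TPM with vector and 0.0756%, 0.0756% and 0.0815% with ΔNp63α, groups that did not overlap. All 26 listed keratins together took 0.979 ± 0.31% with vector and 2.49 ± 0.81% with ΔNp63α (SD, n = 3 each). KRT5 and KRT14, which are among them, took 0.623% and 2.08%.

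Motif counts of 3 further lists are given as descriptions. The AP-1 element TGANTCA was in 2 of 21 promoters of the matrix list (9.52%), against 4.39% of tested genes, and in 2 of the 17 called members. The SREBP element TCACNCCAC was in 1 of 25 promoters of cholesterol genes (4%), against 0.987%, and in 0 of the 11 called members. The NRF2 element TGACNNNGC was in 9 of 31 promoters of its list (29%), against 15.4%, and in 0 of the 9 called members that had a promoter entry.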
